A study of Mus musculus with 10 samples.

Results

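Laminins, the integrin and dystroglycan receptors that bind them, and the proteins that tie both to the basement membrane and the cytoskeleton were examined in mouse tongue as a set of 39 genes out of 27151 in the deposited table. The set is a list of named genes. It holds 5 laminin alpha, 3 beta and 2 gamma chains, 4 basement membrane linkers and proteoglycans, dystroglycan, 9 integrin alpha and 6 beta chains, 3 hemidesmosome partners and 6 integrin adaptors, and it leaves out collagens. All 39 were found in the table by Ensembl identifier. They were split by the compartment in which each is best known: 8 epithelial genes (Lama3, Lamb3, Itga2, Itga3, Itga6, Itgb4, Itgb6 and Fermt1), 8 vascular, muscle and stromal genes (Lama2, Lama4, Itga1, Itga5, Itga7, Itga8, Itgb3 and Tln2) and 23 genes of broad expression.

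All libraries came from tongue of C57BL/6J mice that had been exposed to 4NQO, a carcinogen that damages DNA and is used to induce tumours of the mouse mouth. The exposure is stated in the series' design text and not in the labels of single samples. The vehicle group holds 4 libraries and the SP2509 group 6. SP2509 is a small molecule described as an inhibitor of LSD1, a demethylase of histone H3 lysine residues. The titles of its libraries carry an h (SP2509h) that no label explains. Neither the labels nor the design text state dose, length of exposure, age or sex, and no tongue without 4NQO was analysed here, so each difference is between exposed tongues with and without the compound. Whether 2 libraries could share a mouse is not stated, so p-values measure the spread between libraries, part of which may be technical.

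Laminins are cross-shaped trimers of an alpha, a beta and a gamma chain that polymerise into the first sheet of a basement membrane, to which nidogens, perlecan and agrin are bound. Cells hold on to that sheet through integrins, pairs of an alpha and a beta chain, and through dystroglycan. In stratified epithelium the basal layer is anchored by hemidesmosomes, in which integrin alpha-6 beta-4 joins the laminin of alpha-3 and beta-3 chains to plectin and dystonin, whereas muscle fibres are held to the laminin of alpha-2 chains (merosin) by integrin alpha-7 beta-1 and dystroglycan.

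The libraries held 9180844 to 14768955 reads in vehicle and 15748571 to 19375555 in SP2509, and 35.3 to 52.1% against 24.0 to 32.2% of them lay in mitochondrially encoded genes. Values below are normalised reads, the read count divided by 1 size factor per library, and a single read stood for 0.898 to 1.85 of them in vehicle libraries and for 0.727 to 0.873 in SP2509 libraries. SP2509 replicates 1 and 2, and replicates 4 and 5, were much closer to each other than other libraries of a group: for well-counted genes the spread was 3.49 to 3.72 times the counting variance in these 2 pairs and 11.1 to 163 times in the other 19. Group means and SDs therefore count each of these pairs once (n = 4 for both groups). Fold changes and adjusted p-values come from limma on log2(value + 1) over all 10 libraries, with Benjamini-Hochberg adjustment over 17088 tested genes, and the p-value with each close pair merged is given for members past the threshold. The table fitted the tissue label, with skeletal muscle Acta1 at 41413 ± 21812 and basal keratinocyte Krt5 at 30293 ± 6754 in vehicle. Library makeup was uneven: summed skeletal muscle markers reached 881622 in SP2509 replicate 6 and 200929 to 409405 in the other 9. The summed gland markers stood at 291338 and 302428 in SP2509 replicates 4 and 5 and at 19.4 to 763 in the others. In bulk tissue such as this, fewer cells of a type and less RNA per cell cannot be told apart.

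Members were called in both directions. Of the 38 members that passed the filter on low values, 3 rose with SP2509 (Itgb1, Lamc1 and Dag1) and 3 fell (Lama5, Hspg2 and Itga7). That is 15.8% of them, against 9.1% of all tested genes, of which 4.95% rose and 4.15% fell. The median log2 fold change was 0.04 over the 38 members and 0.02 over all tested genes, and 22 members lay above 0 and 16 below. By compartment, 0 of the 8 epithelial genes passed (median 0.14), 1 of the 8 vascular, muscle and stromal genes did (Itga7, median -0.01), and 5 of the 22 tested genes of broad expression did (median 0.03). With groups of 8 genes and 9.1% of all tested genes called, these counts do not set the compartments apart. In 4 members every SP2509 library lay above every vehicle library (Lamc1, Dag1, Itgav and Itgb1) and in 2 every one lay below (Lama5 and Hspg2), 6 of 38 against 11.7% of all tested genes (6.54% above and 5.11% below). With SP2509 replicates 4 and 5 both left out no member passed. With the close pairs merged no gene of the table passed an adjusted p of 0.05, members included. At an unadjusted p under 0.05 that limma fit held 11 members and 3653 tested genes, or 21.4%, while edgeR's quasi-likelihood test over 10 libraries called 3 members higher and 2 lower, against 8.76% of tested genes (5.34% higher and 3.42% lower). DESeq2 called 5 members higher and 4 lower, against 18.7% of genes (10.1% higher and 8.64% lower).

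**Figure D1:**
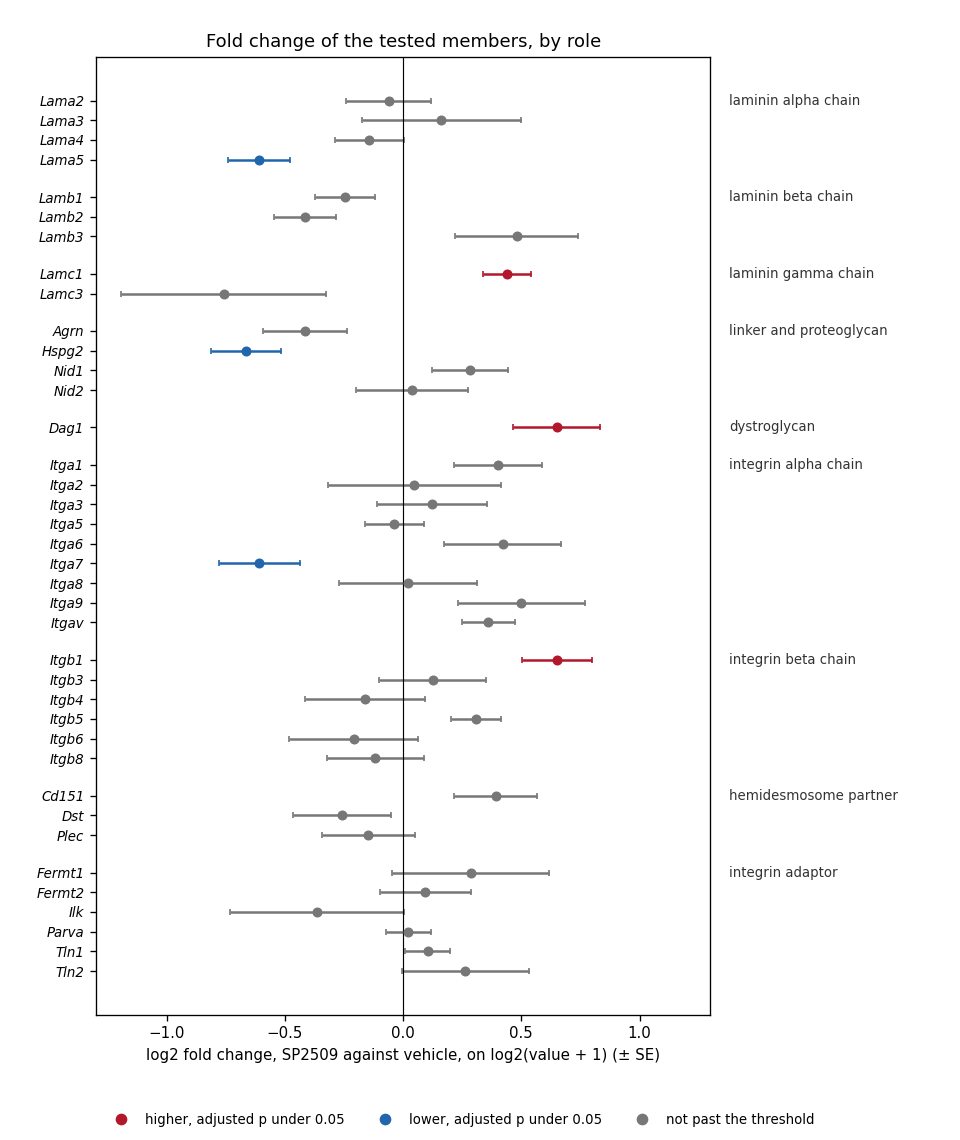
Log2 fold change of SP2509 against vehicle for the 38 tested members (x axis, on the log2(value + 1) scale), grouped by role, with bars of 1 SE from the limma fit over 10 libraries. The 3 red genes rose and the 3 blue genes fell at an adjusted p under 0.05; they lie at 0.65, 0.65, 0.44, -0.61, -0.61 and -0.66.

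The 6 genes lie apart in the genome (GENCODE M21 on GRCm38): Lama5 at chr2:180176373-180225859, minus strand; Hspg2 at chr4:137468769-137570630, plus strand; Itga7 at chr10:128933818-128958282, plus strand. Those that rose are Itgb1 at chr8:128685654-128733200, plus strand, Lamc1 at chr1:153218922-153332786, minus strand and Dag1 at chr9:108204634-108263958, minus strand. RefSeq promoter windows were at hand for Lama5, Hspg2, Itgb1 and Dag1, and the bases before their start sites are shown because 2 of these genes fell and 2 rose. The sequences are from GRCm38.p6, written 5′ to 3′ on the gene's strand and ending at the base before the annotated gene, with capitals marking GC boxes, the motif GGGCGG searched on both strands. The Lama5 window is chr2:180225860-180226109 on the minus strand, that of Hspg2 chr4:137468553-137468768 on the plus strand (its last 34 bases, which lie in the annotated gene, are left out), that of Itgb1 chr8:128685404-128685653 on the plus strand and that of Dag1, the farther upstream of its 2 windows, chr9:108263959-108264208 on the minus strand.
Lama5: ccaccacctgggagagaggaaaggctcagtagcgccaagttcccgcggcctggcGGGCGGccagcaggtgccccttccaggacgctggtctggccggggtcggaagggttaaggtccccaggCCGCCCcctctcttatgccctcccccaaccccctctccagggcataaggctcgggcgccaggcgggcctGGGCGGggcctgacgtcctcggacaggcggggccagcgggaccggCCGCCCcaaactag
Hspg2: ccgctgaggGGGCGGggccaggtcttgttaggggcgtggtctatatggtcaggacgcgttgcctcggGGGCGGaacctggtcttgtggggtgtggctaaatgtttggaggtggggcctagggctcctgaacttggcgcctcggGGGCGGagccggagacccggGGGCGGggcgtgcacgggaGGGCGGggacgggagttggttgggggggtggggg
Itgb1: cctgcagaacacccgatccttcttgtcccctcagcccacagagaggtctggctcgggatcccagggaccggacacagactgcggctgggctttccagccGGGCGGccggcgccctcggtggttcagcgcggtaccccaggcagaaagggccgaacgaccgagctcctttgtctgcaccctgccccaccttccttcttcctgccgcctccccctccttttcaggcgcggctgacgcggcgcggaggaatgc
Dag1: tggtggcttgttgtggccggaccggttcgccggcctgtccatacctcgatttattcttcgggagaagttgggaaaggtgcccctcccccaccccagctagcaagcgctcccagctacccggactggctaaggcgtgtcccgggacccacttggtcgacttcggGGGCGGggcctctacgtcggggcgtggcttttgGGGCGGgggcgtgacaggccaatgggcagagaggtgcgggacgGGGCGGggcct
The 4 stretches hold 4, 5, 1 and 3 GC boxes and are 72.4%, 70.8%, 68.0% and 67.6% G and C. Over the 250 bases before the start site, 18 of the 34 windows of 26 members held the motif (52.9%), against 32.7% of 32851 windows of all genes. All 4 sequences hold it, so it does not separate the genes that fell from those that rose.

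Among the laminin alpha chains, Lama5 fell. It encodes the alpha-5 chain, the alpha chain found beneath adult epithelium and endothelium. In the 4 vehicle libraries Lama5 stood at 4914, 4894, 4516 and 4156 normalised reads, and in the 6 SP2509 libraries at 3421, 3679.8, 2826, 2828, 2588 and 2893. The 2 groups did not overlap, and the lowest vehicle library lay above the highest SP2509 library. The mean went from 4619.9 ± 359 to 2994 ± 378 (SD, n = 4 each), and Lama5 fell by 0.61 ± 0.13 on the log2 scale, or by 34.5% (limma adjusted p = 0.0202; 0.0767 with the pairs merged). Without vehicle replicate 1 the call was lost (-0.58, adjusted p = 0.0660), and it held without each of the other 9 libraries taken singly. It was also lost without SP2509 replicates 4 and 5 together (-0.53, adjusted p = 0.0815) and with the correction for GC content and length described below (adjusted p = 0.0760). For this and the other members, leaving out 1 library of a close pair keeps the other in. SP2509 replicates 1 and 2 were not left out together.

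The other alpha chains did not pass the test. Lama3, the alpha chain of the epithelial laminin, stood at 447, 534, 327 and 412 in vehicle and 734, 864, 678, 352, 297 and 251 in SP2509, high in SP2509 replicates 1 to 3 and low in replicates 4 to 6. Lama2, the alpha chain of the muscle laminin merosin, stood at 204, 179.7, 325 and 312 in vehicle and 251, 254, 211.2, 217, 219.6 and 274 in SP2509, and these ranges overlap almost fully (log2 fold change -0.06, adjusted p = 0.857). Lama4, an alpha chain of vessel walls, averaged 535 ± 133 in vehicle and 486 ± 39.6 with SP2509 (log2 fold change -0.14, adjusted p = 0.554). Lama1, the alpha-1 chain of embryonic basement membranes, was near the floor, at 0 to 12.7 in vehicle and 0.745 to 8.95 in SP2509, or 22 and 28 reads in all, and was not tested.

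Lamc1, the gamma-1 chain shared by most laminins other than the epithelial one, rose. Its values were 543, 594, 717 and 689 in vehicle and 856, 893, 868, 811, 816 and 903 in SP2509, with no overlap and with the SP2509 libraries within a narrow band. The mean went from 636 ± 80.8 to 865 ± 37.5, a log2 fold change of 0.44 ± 0.10 (limma adjusted p = 0.0254; 0.0969 with the pairs merged). The call was lost without vehicle replicate 1 (0.37, adjusted p = 0.0801), vehicle replicate 2 (0.41, adjusted p = 0.0555) and SP2509 replicate 1 (0.44, adjusted p = 0.0532), 2 (0.43, adjusted p = 0.0533) or 3 (0.44, adjusted p = 0.0540), and it held without each of the other 5.

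None of the beta chains passed. Lamb2, the beta-2 chain of vascular and neuromuscular laminins and, per length, the most abundant of the laminin chains measured here, was at 4396, 4462, 4856 and 4251 in vehicle and 3294, 3186, 3240.2, 3194, 3036 and 4388 in SP2509 (log2 fold change -0.42 ± 0.13, limma adjusted p = 0.0627). All SP2509 libraries but replicate 6 lay below every vehicle library, and without replicate 6 Lamb2 passed (-0.49, adjusted p = 0.00333). That fit called 3459 of the 17088 tested genes, against 1555 over all 10 libraries. The same background stands beside each call without replicate 6 given below. Lamb1, the beta chain of most embryonic and vascular laminins, averaged 537 ± 62.3 in vehicle and 461 ± 55.1 with SP2509 (adjusted p = 0.226). Lamc3, the gamma-3 chain, was low and scattered, at 18.5 to 88.7 in vehicle and 14.8 to 38.5 in SP2509 (adjusted p = 0.272).

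**Figure D2:**
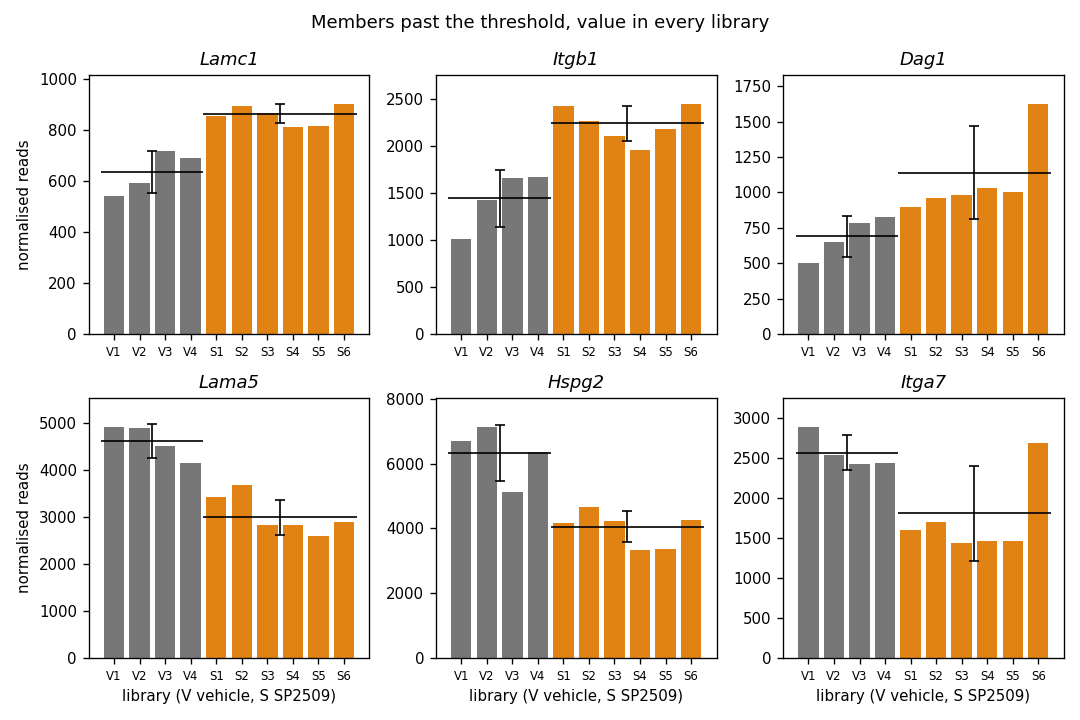
Normalised reads (y axis) of the 6 members past the threshold in every library (x axis; V1 to V4 vehicle in grey, S1 to S6 SP2509 in orange), with horizontal lines at the group mean and bars of 1 SD over n = 4, each close pair of SP2509 libraries counted once. Dag1 (1626) and Itga7 (2691) stand highest among SP2509 libraries in replicate 6, and Itga7 is the only one of the 6 whose groups overlap.

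Hspg2 encodes perlecan, a heparan sulfate proteoglycan that binds laminin, nidogen and growth factors in basement membranes, and it fell. The vehicle libraries held 6694, 7119, 5134 and 6365 normalised reads and the SP2509 libraries 4152, 4649, 4213, 3328, 3374 and 4249. All 6 SP2509 libraries lay below the lowest vehicle library, which was replicate 3. The mean went from 6328 ± 854 to 4053 ± 475, and Hspg2 fell by 0.66 ± 0.15 on the log2 scale, or by 36.9% (limma adjusted p = 0.0218; 0.0922 with the pairs merged). Without vehicle replicate 1 (-0.63, adjusted p = 0.0699) or 2 (-0.60, adjusted p = 0.0515) the call was lost.

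The other linkers did not pass. Agrin (Agrn), the proteoglycan that organises the neuromuscular junction and also lies in vascular and epithelial basement membranes, averaged 3974 ± 541 in vehicle and 2949.9 ± 700.3 with SP2509 (log2 fold change -0.42 ± 0.18, limma adjusted p = 0.149). Nidogen-1 (Nid1), which bridges the laminin gamma-1 chain and collagen IV, averaged 517 ± 139 in vehicle and 620.3 ± 58.7 with SP2509 (log2 fold change 0.28 ± 0.16, limma adjusted p = 0.266). Nidogen-2 (Nid2) averaged 135 ± 45.5 in vehicle and 137 ± 22.0 with SP2509 (adjusted p = 0.939), and 8.45% of its exon bases overlap Rtraf on the opposite strand. How much of its signal belongs to that neighbour cannot be told, since no source used here gives the strand setting of the counting.

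Itgb1 encodes integrin beta-1, the common partner of the laminin-binding alpha-3, alpha-6 and alpha-7 chains and of the collagen- and fibronectin-binding alpha chains, and it rose. It stood at 1016, 1428, 1661 and 1673 in vehicle and 2426, 2273, 2109, 1963, 2183 and 2454 in SP2509. Every SP2509 library lay above every vehicle library, and vehicle replicate 1 was the lowest of all. The mean went from 1445 ± 307 to 2246 ± 185, a log2 fold change of 0.65 ± 0.15, or 57.2% higher (limma adjusted p = 0.0235; 0.0917 with the pairs merged). The call was lost without vehicle replicate 1 (0.49, adjusted p = 0.0624) or SP2509 replicate 1 (0.63, adjusted p = 0.0516).

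Of its alpha partners measured here, Itga7, the alpha-7 chain of the muscle laminin receptor, was the one that passed, and it fell. The vehicle libraries held 2885, 2534, 2424 and 2434 and the SP2509 libraries 1599, 1704, 1443, 1460.0, 1459 and 2691. SP2509 replicates 1 to 5 lay below every vehicle library, while replicate 6 lay within the vehicle range, and replicate 6 is the library with the highest skeletal muscle markers. The mean went from 2569 ± 216 to 1811 ± 594, and Itga7 fell by 0.61 ± 0.17 on the log2 scale (limma adjusted p = 0.0470; 0.162 with the pairs merged and 0.0705 by edgeR). The call was lost without any 1 of the other 9 libraries, with adjusted p-values up to 0.134 (without vehicle replicate 1), and without replicate 6 the log2 fold change was -0.74 (adjusted p = 0.00111). Summed skeletal muscle markers ranged from 200929 to 394070.0 in vehicle and from 325258 to 881622 in SP2509, and 0 of the 10 tested passed. Single markers differed in direction, with 8 above 0 and 2 below (Neb and Ttn). Without replicate 6, Neb was at -0.77 (limma adjusted p = 0.00714) and Ttn at -0.37 (0.111). In the same fit Acta1 was at 1.06 (0.0443) and Ckm at 0.82 (0.0431), and the median of the 10 was 0.40. The part of the muscle markers in the result was not tested.

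Dag1, which encodes both chains of dystroglycan, the other main laminin receptor of muscle, rose. It stood at 499, 649.6, 783 and 825 in vehicle and 900.5, 961, 981, 1029, 1006 and 1626 in SP2509, without overlap, and replicate 6 was far above the other SP2509 libraries. The mean went from 689 ± 147 to 1139 ± 327, a log2 fold change of 0.65 ± 0.18 (limma adjusted p = 0.0460; 0.112 with the pairs merged). As for Itga7, the call was lost without any 1 of the other 9 libraries (adjusted p up to 0.141, without vehicle replicate 1) and kept without replicate 6 (0.53, adjusted p = 0.0184). In SP2509 replicates 1 to 5 Dag1 thus lay above and Itga7 below every vehicle library, while in replicate 6 Dag1 lay above the vehicle range and Itga7 within it.

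The remaining integrins did not pass. Among the alpha-v group, which binds fibronectin, vitronectin and latent TGF-beta, Itgav averaged 422 ± 38.3 in vehicle and 551 ± 46.5 with SP2509 and its groups did not overlap (log2 fold change 0.36 ± 0.11, limma adjusted p = 0.0631). Without SP2509 replicate 6 Itgav passed (0.35, adjusted p = 0.0463). Itgb5 averaged 869 ± 87.9 in vehicle and 1098 ± 110.1 with SP2509 (log2 fold change 0.31 ± 0.11, adjusted p = 0.0836). Itgb3, also the platelet and osteoclast beta chain, and Itgb8 were low, at 80.1 ± 23.3 and 106 ± 21.8 in vehicle and 86.7 ± 10.6 and 103 ± 23.0 in SP2509. The fibronectin receptor chain Itga5 averaged 673 ± 104 in vehicle and 639 ± 78.7 with SP2509. The collagen receptor chain Itga1 averaged 362 ± 123 in vehicle and 460.3 ± 37.3 with SP2509 (log2 fold change 0.40 ± 0.19, adjusted p = 0.180), the tenascin receptor chain Itga9 109.8 ± 39.2 in vehicle and 159 ± 43.3 with SP2509, and Itga8, found on smooth muscle and mesenchyme, 70.9 ± 24.8 in vehicle and 72.9 ± 14.3 with SP2509.

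**Figure D3:**
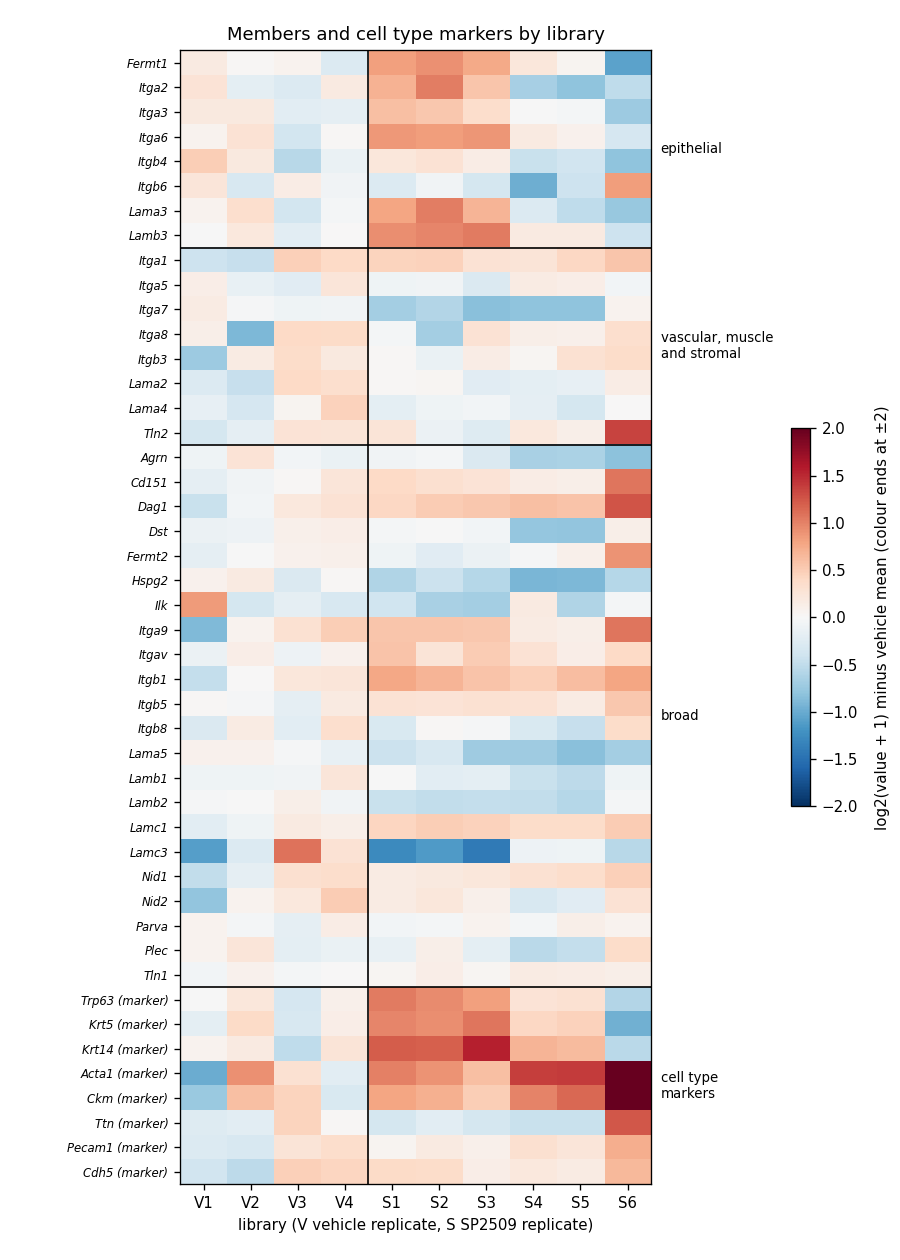
Deviation of log2(value + 1) from the vehicle mean (colour, ending at ±2) for the 38 tested members and 8 cell type markers (rows, by compartment) in the 10 libraries (columns; V vehicle, S SP2509). Most epithelial members are high in SP2509 replicates 1 to 3 and low in replicate 6, as are Trp63, Krt5 and Krt14, and the muscle markers Acta1 and Ckm are highest in replicate 6.

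The epithelial chains varied more between SP2509 libraries than between the groups. The beta-3 chain of the epithelial laminin, Lamb3, stood at 786, 914, 679 and 787 in vehicle and 1505, 1543, 1615, 893, 888 and 588 in SP2509. Its receptor chains had the same pattern. Itga6, the alpha-6 chain of hemidesmosomes, stood at 1932, 2259, 1425 and 1872 and 3372, 3310.2, 3408, 2088, 1969 and 1459, and Itga3, the alpha-3 chain that anchors basal keratinocytes outside hemidesmosomes, at 1379.5, 1379, 1036 and 1059 and 1828, 1751, 1538, 1194, 1171 and 728. In all 3 genes SP2509 replicates 1 to 3 lay above every vehicle library and replicates 4 to 6 did not. None passed (log2 fold changes 0.48 ± 0.26, 0.42 ± 0.25 and 0.12 ± 0.23; limma adjusted p = 0.252, 0.287 and 0.771). Without SP2509 replicate 6 Lamb3 passed, at 0.66 (adjusted p = 0.0362), and the median of the 8 epithelial members went from 0.14 to 0.32.

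Itgb4, the hemidesmosomal beta-4 chain, was also higher in SP2509 replicates 1 to 3 than in replicates 4 to 6. Unlike for Itga6, replicates 1 to 3 did not lie above every vehicle library. Itgb4 stood at 6996, 5714, 3401 and 4570.3 in vehicle and 5837, 6107, 5509, 3667, 3824 and 2869 in SP2509, with the highest value in vehicle replicate 1 (log2 fold change -0.16 ± 0.25, limma adjusted p = 0.719). Itga2, the alpha-2 collagen receptor chain of basal cells, ranged from 74.6 to 109 in vehicle and 50.9 to 183 in SP2509. Fermt1, the kindlin that activates integrins in keratinocytes, ranged from 145 to 200.3 and 83.0 to 331.6. Itgb6, a beta chain of wounded and transformed epithelium, had a different pattern, at 269 to 397 in vehicle and 277, 322, 262, 171, 252 and 599 in SP2509, with replicate 6 highest. None of these 4 passed.

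The libraries rich in epithelial chains were rich in the basal keratinocyte regulator Trp63, so each chain was also set against Trp63 within a library, as a description. Itga6 per Trp63 ranged from 0.945 to 1.06 in vehicle and 0.869 to 1.20 in SP2509, and Lamb3 per Trp63 from 0.397 to 0.463 and 0.392 to 0.497. Over all 10 libraries Lamb3 itself varied 2.74-fold and its ratio to Trp63 1.27-fold. The narrowing differed between the 8 chains. Lama3 varied 3.45-fold and its ratio 1.89-fold, Fermt1 3.99-fold and 1.85-fold, and Itga3 2.51-fold and 1.59-fold. Itga6 varied 2.39-fold and its ratio 1.37-fold, and Itga2 3.60-fold and 2.66-fold. Narrowing was absent in Itgb6, which varied 3.51-fold and its ratio 6.67-fold, and in Itgb4, at 2.44-fold and 2.47-fold. Itgb4 per Trp63 was 2.31 to 3.83 in vehicle and 1.55 to 2.35 in SP2509, where only replicate 6 reached the vehicle range. Summed basal keratinocyte markers were 55833 to 87163 in vehicle and 38843 to 163577 in SP2509, and 0 of 5 passed. Without SP2509 replicate 6, where Lamb3 passed, Trp63 (0.67, limma adjusted p = 0.0220), Krt5 (0.77, 0.0152) and Krt14 (1.06, 0.00679) passed too. Col17a1 (0.47, 0.404) and Krt15 (0.11, 0.777) did not. The part of the basal markers in the values of the epithelial chains was not tested.

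Beneath the membrane, neither the hemidesmosome partners nor the adaptors passed. Dst (dystonin) and Plec (plectin) link hemidesmosomes to keratin and are also expressed in muscle. Dst averaged 7564 ± 682 in vehicle and 6816 ± 1669 with SP2509, and Plec averaged 11090.1 ± 1576 in vehicle and 10612 ± 2702 with SP2509. Both were lowest in SP2509 replicates 4 and 5, at 4409 and 4358 for Dst and at 7549 and 7876 for Plec, the libraries rich in gland markers. Cd151, the tetraspanin bound to laminin-binding integrins, averaged 903 ± 117 in vehicle and 1280.0 ± 414 with SP2509, with replicate 6 at 1892 (adjusted p = 0.169). The talins, which activate integrins from inside, averaged 2084 ± 92.8 in vehicle and 2229 ± 71.3 with SP2509 for Tln1 and 439 ± 94.7 in vehicle and 601 ± 337 with SP2509 for the muscle-rich Tln2, whose replicate 6 reached 1100.4. Parva (alpha-parvin) averaged 606 ± 56.9 in vehicle and 619.9 ± 23.5 with SP2509 and Fermt2 (kindlin-2) 917 ± 77.7 in vehicle and 1081 ± 424 with SP2509. For Tln1 and Parva the log2 fold changes were 0.10 ± 0.10 and 0.02 ± 0.10, the smallest errors of the adaptors. Ilk, the integrin-linked kinase, averaged only 17.1 ± 8.38 in vehicle and 12.5 ± 2.75 with SP2509, and 76.8% of its exon bases overlap Taf10 on the opposite strand. Without the strand setting of the counting, it cannot be told whether Ilk holds reads of Taf10 or lost reads to it.

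Chains that bind each other, and Dag1 with Itga7, were then compared as ratios within each library. Dag1 and Itga7 encode parts of 2 separate receptors of muscle laminin and are not binding partners. The 21 pairs were picked after the members' values had been seen, so the ratios are described and not tested. In 8 of the 21 the groups did not overlap, against 9.52% of all pairs of tested genes. Those 8 are not independent, since 4 of them share Lamc1 and 2 share Itga7. All of them but Itga6 per Itgb4 hold a member past the threshold, so they partly repeat the calls of single genes. The share of all pairs is given as background, and no excess is read from it. Lama5 per Lamc1 was 6.04 to 9.04 in vehicle and 3.17 to 4.12 in SP2509, the mean log2 ratio differing by -1.08. Lamb2 per Lamc1 was 6.17 to 8.09 and 3.57 to 4.86, Lamb1 per Lamc1 0.711 to 0.928 and 0.455 to 0.621, and Lama4 per Lamc1 0.698 to 1.04 and 0.505 to 0.584. The gamma-1 chain was thus higher relative to each of these 4 partners in every SP2509 library.

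For the receptors, Itga7 per Itgb1 was 1.46 to 2.84 in vehicle and 0.659 to 1.10 in SP2509. Dag1 per Itga7 was 0.173 to 0.339 and 0.563 to 0.705, also in replicate 6, where both genes were highest among the SP2509 libraries. Itga6 per Itgb4, the 2 chains of the hemidesmosomal integrin, was 0.276 to 0.419 and 0.509 to 0.619, although neither gene passed the test alone. The ratio of Hspg2 to Nid1 was 8.20 to 18.8 in vehicle and 5.27 to 8.12 in SP2509, and its groups overlapped after the correction for GC content described below. The 2 chains of the epithelial laminin analysed here kept overlapping ratios, with Lama3 per Lamb3 at 0.481 to 0.585 and 0.335 to 0.560. Itgav per Itgb5 also overlapped, at 0.439 to 0.539 and 0.439 to 0.588.

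**Figure D4:**
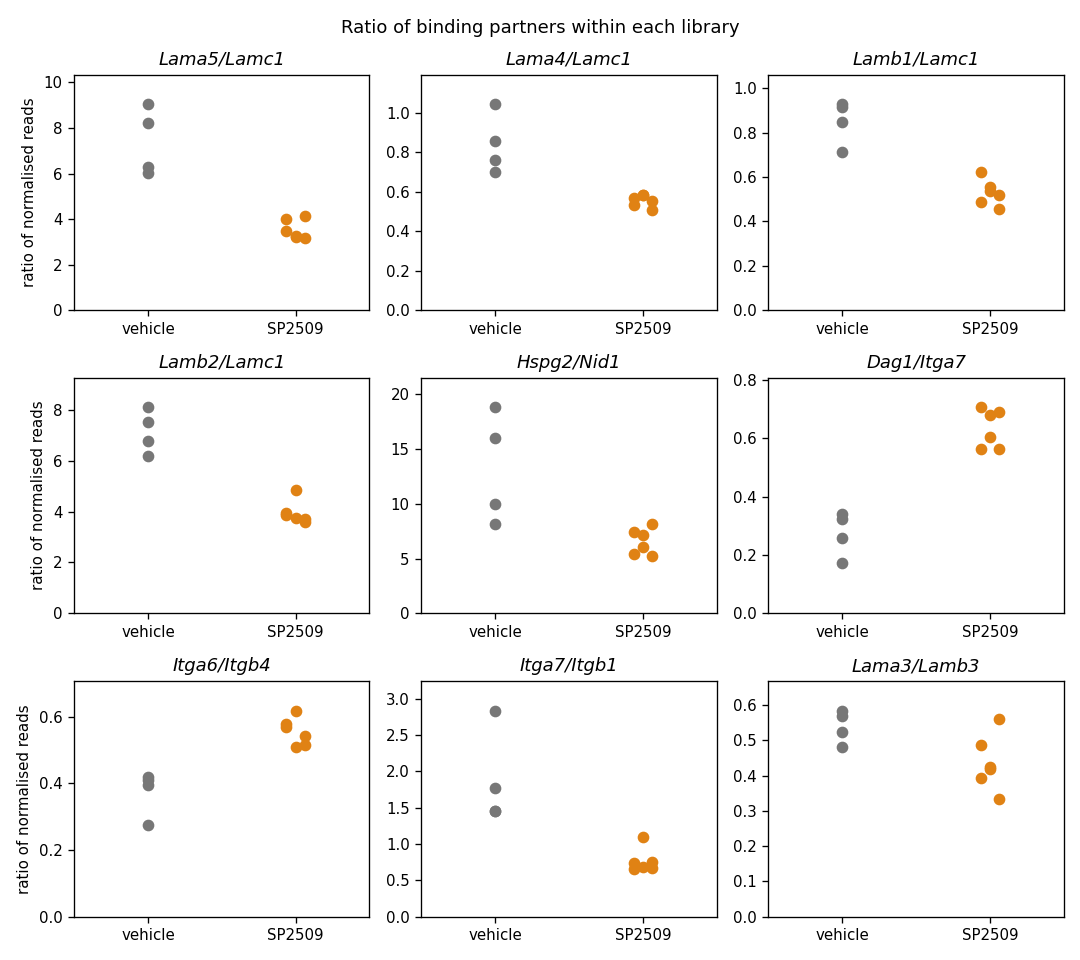
Ratio of normalised reads of 2 genes in each library (y axis, from 0) for the 8 pairs whose groups did not overlap and for Lama3/Lamb3, whose groups did, with vehicle in grey and SP2509 in orange. All are pairs of binding partners except Dag1/Itga7. Lama5/Lamc1 lies at 6.04 to 9.04 in vehicle and 3.17 to 4.12 in SP2509.

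The members that fell have transcripts rich in G and C. GC content of the longest annotated transcript was 59.9% for Lama5, 60.9% for Hspg2 and 57.8% for Itga7, and 44.8% for Itgb1, 53.0% for Lamc1 and 52.8% for Dag1. The median was 49.8% over all tested genes, 48.6% over those that rose and 53.1% over those that fell. Among the 1708 tested genes with the highest GC content, 3.75% rose and 7.61% fell. Among the 1708 with the lowest, 5.44% rose and 3.51% fell. When each library's trend with GC content and transcript length was taken out, the 3 lower members no longer passed: Lama5 was at -0.46 (limma adjusted p = 0.0760), Hspg2 at -0.48 (0.107) and Itga7 at -0.56 (0.0869). Lamc1 (0.52, 0.0196), Dag1 (0.70, 0.0382) and Itgb1 (0.62, 0.0325) still passed, so 3 members were higher and 0 lower in a fit that called 6.28% of tested genes (3.53% higher and 2.76% lower). This correction was chosen after the data had been seen.

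Another scaling also changed which members passed. Rescaling to reads outside mitochondrial genes moved the median of all tested genes by -0.15 on the log2 scale and called 10.2% of them (1.74% higher and 8.44% lower). Under it Lama5, Hspg2 and Itga7 still passed, Lamb2 passed too (-0.57, adjusted p = 0.0146), and Itgb1 (0.50, 0.0533), Dag1 (0.50, 0.0702) and Lamc1 (0.29, 0.127) did not. A ratio of partners within a library does not depend on scaling.

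**Figure D5:**
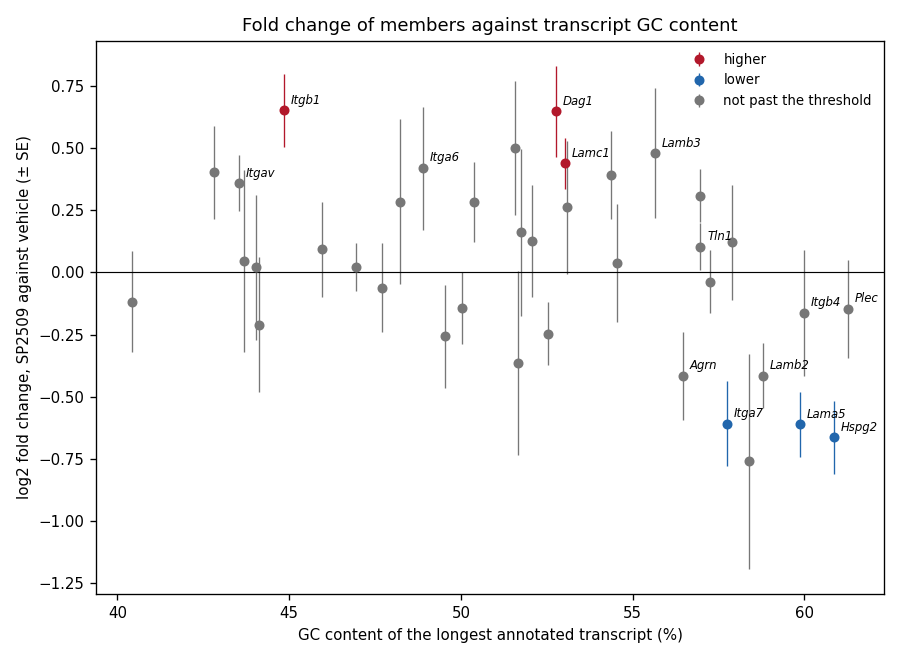
Log2 fold change of the 38 tested members (y axis, SP2509 against vehicle, bars of 1 SE) against the GC content of the longest annotated transcript in percent (x axis). The 3 members that fell (blue) lie at 57.8% to 60.9% GC. At a similar GC content and not past the threshold, Lamc3 lies at -0.76, Lamb2 at -0.42, Itgb4 at -0.16, Plec at -0.15 and Itga3 at 0.12.

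Levels per kilobase of exon, with all annotated exons of a gene joined, give an order of the members within the tongue. The order depends on this choice of length. Joined exons span 12068 bases for Lama4 and 8092 for Itga7, while their longest transcripts span 6046 and 4020. For Lama5 both lengths are 11388. In vehicle the highest were Lamb2 (738 normalised reads per kilobase), Itgb4 (737) and Plec (612), followed by Hspg2 (442), Agrn (428) and Lama5 (406). Itgb1 was at 354 in vehicle and 550.4 in SP2509, and Lama5 at 406 and 263, so the order of these 2 genes was reversed between the groups. Among alpha chains of laminin, Lama5 was followed by Lama4 (44.4), Lama3 (40.0) and Lama2 (15.6) in vehicle, and the gap between Lama4 and Lama3 was smaller than 1 SD of either. Lamb2 and Itgb4, at the top, also lay within 1 SD of each other.

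Other genes of adhesion moved at about the rate of the table. Of 77 further adhesion and basement membrane genes, 4 rose and 4 fell (10.4%), with a median log2 fold change of 0.07. Of all tested genes 9.1% were called, 4.95% higher and 4.15% lower. In the focal adhesion list 3 of 23 fell: paxillin (Pxn), a scaffold recruited to integrin tails, went from 5094 ± 639 to 3019 ± 543 (log2 fold change -0.79, limma adjusted p = 0.0170), Tns1 from 8781 ± 1306 to 5992 ± 1807 (-0.65, 0.0486) and Tns2 from 3026 ± 468 to 1977 ± 337 (-0.64, 0.0316). Tns1 and Tns2 encode tensins, which join integrin tails to actin. The actin crosslinker Actn1 rose from 548 ± 57.1 to 781 ± 151 (0.50, 0.0434).

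Among 10 genes that build the laminin-binding sugar of dystroglycan, 2 rose, B4gat1 from 157 ± 32.1 to 238 ± 23.5 (0.59, limma adjusted p = 0.0376) and Rxylt1 from 141 ± 6.35 to 203 ± 7.19 (0.52, 0.0260), and none fell. Both encode glycosyltransferases of that sugar. Of 9 other laminin receptors and tetraspanins, the tetraspanin Cd63 rose from 1199 ± 120.2 to 2028 ± 546 (0.74, 0.0332) and Mcam, a laminin receptor of vessels, fell from 654 ± 70.6 to 477 ± 59.7 (-0.47, 0.0254). None of the 12 genes of the dystrophin complex, the 14 other basement membrane proteins or the 9 other integrins passed. In lists this short, beside 4.95% of all tested genes higher and 4.15% lower, these counts do not set any list apart. Merging the close pairs put the 8 called genes of these lists at limma adjusted p-values of 0.0750 to 0.174. Each lost its call without 1 to 9 of the 10 libraries (Pxn without 1, Tns1 and Actn1 without 9), and without vehicle replicate 1 none of the 77 passed.

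Markers of the other cells that build basement membranes were set beside these results. The 9 endothelial markers summed to 7563 to 12036 in vehicle and 7734 to 10506 in SP2509, with 4 above 0 and 5 below. Of them Egfl7 fell from 3381 ± 644 to 1940.4 ± 184 (-0.77, limma adjusted p = 0.0136, and 0.0731 with the pairs merged). Without SP2509 replicate 6 Cldn5 (-0.49, 0.0171) and Tie1 (-0.35, 0.0395) passed too, and Pecam1 (0.18, 0.404) and Cdh5 (0.25, 0.409) did not. Among Schwann cell markers, Mbp averaged 3286 ± 1106 in vehicle and 1934 ± 643 with SP2509 (log2 fold change -0.87, adjusted p = 0.0544), Sox10 380.0 ± 66.1 in vehicle and 303 ± 70.5 with SP2509 (-0.36, 0.188) and the low Ngfr 27.1 ± 14.4 in vehicle and 32.6 ± 7.11 with SP2509 (0.47, 0.498). None of these 3 passed over 10 libraries, and without SP2509 replicate 6 Mbp did (-1.01, 0.0134). Mural and smooth muscle markers summed to 8473 to 14315 in vehicle and 10943 to 11826 in SP2509. Of these 6 markers 3 lay above 0 and 3 below, from Notch3 at -0.49 to Acta2 at 0.57. Fibroblast markers summed to 6861 to 9536 and 8675 to 10600.5, leukocyte markers to 369 to 713 and 409 to 629.7 and platelet markers to 444 to 589.8 and 326 to 504. None passed the threshold in these 4 lists. Differentiated keratinocyte markers summed to 32298 to 53590.2 and 18046 to 120512, and none of 6 passed. The part of these cells in the values of Lama5, Hspg2, Itga7, Lamc1 and Itgb1 was not tested.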

How the data were processed

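Tongue RNA was cleaned on columns, enriched for poly-A RNA and copied from random hexamers, per the labels' protocols. HISAT2, featureCounts and mm10 appear, without versions, in the submitters' processing notes. No source used here names the annotation release, strand setting or scaling tool. The deposited normalised signal came back as whole reads, within 0.01 of a whole number for 100% of values, once 1 factor per library was removed. Members and lists were chosen with earlier results of these data known. All 39 members are named, with every library's value for those past the threshold and for the epithelial and muscle laminins and their main receptors. Of the other adhesion lists, up to 4 genes with the smallest p are named. Markers of cell types are named without that rule.

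The 17088 genes that reached a value of 10 in 4 or more libraries entered limma 3.58.1 (R 4.3.3; intensity trend, robust empirical Bayes, two-sided, Benjamini-Hochberg, threshold 0.05) on log2(value + 1), with no covariate. limma with close pairs merged, count tests on the recovered reads (edgeR 4.0.16, DESeq2 1.42.0), other filters, scalings and pseudocounts, libraries left out and a replicate block were alternatives. edgeR called 1497 genes (912 higher, 585 lower). The tests were tried on simulated data first. GENCODE M21 (GRCm38, the same assembly as mm10) gave coordinates and symbols for 27113 identifiers. RefSeq gave promoters. Of the Schwann cell markers not all are reported here.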

Additional observations from a re-analysis of the deposited data

Results flagged for a closer look

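In 7 of 78 sets of values tested (the 39 members in each group, SP2509 pairs counted once) 1 library stood far from the others. The rule used would flag about 1 in 20 independent sets of normally spread values. These sets share libraries and are not independent, so no excess over that rate is read from the count. Lamb2 (4388 normalised reads), Dag1 (1626), Itga7 (2691), Fermt2 (1712) and Tln2 (1100.4) were each highest among SP2509 in replicate 6, the library with the most skeletal muscle marker RNA. Lamb1 was highest in vehicle replicate 4 (630.3) and Ilk in vehicle replicate 1 (29.7).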

How the results depend on the processing

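With all 10 libraries, members called higher and lower numbered 3 and 3, tested genes 846 and 709 (1555 in all), and called genes of the other adhesion lists 8 of 77. The same counts, in that order, were 0 and 0, 0 and 0 (0), and 0 with the pairs merged; 0 and 0, 219 and 156 (375), and 0 with SP2509 replicates 4 and 5 both left out; 3 and 0, 602 and 471 (1073), and 5 with the GC and length correction; 0 and 4, 297 and 1442 (1739), and 8 with scaling to reads outside mitochondrial genes. They were 3 and 4, 666 and 1060 (1726), and 7 with quantile normalisation, 2 and 2, 553 and 479 (1032), and 5 with no filter, 4 and 4, 1073 and 817 (1890), and 9 with a filter of 50 in place of 10, 2 and 2, 490 and 481 (971), and 3 with limma without trend and robust fitting. They were also 3 and 2, 912 and 585 (1497), and 7 with edgeR, 5 and 4, 1618 and 1388 (3006), and 15 with DESeq2, 5 and 4, 1713 and 1388 (3101), and 14 with an adjusted p under 0.1, 3 and 3, 857 and 747 (1604), and 8 with a pseudocount of 5. With each library left out in turn they ranged from 0 to 5 and 0 to 4, 171 to 1971 and 107 to 1488 (278 to 3459), and 0 to 16, lowest without vehicle replicate 1 and highest without SP2509 replicate 6. A replicate block, over replicates 1 to 4 only, gave 6 and 4, 1158 and 813 (1971), and 9. Same-numbered libraries did not deviate together (correlations 0.13, 0.03, -0.20 and 0.13), so the numbers are not taken to pair them. The cause of these shifts was not tested.

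The 6 called members kept their direction in all 22 alternatives that give a fold change, and 17 members that did not pass changed sign in 46 of 834 combinations of member and alternative. Log2 fold changes of opposite sign were Itga8 -0.022, Itgb6 0.033, Itgb8 0.016, Dst 0.0057 and Plec 0.036 with SP2509 replicates 4 and 5 both left out; Lama2 0.0060, Itga5 0.022 and Plec 0.048 with the GC and length correction, Nid2 -0.11, Itga2 -0.10, Itga3 -0.029, Itga8 -0.13, Itgb3 -0.024, Fermt2 -0.057, Tln1 -0.047 and Parva -0.13 with scaling to reads outside mitochondrial genes, Nid2 -0.0067 and Parva -0.050 with quantile normalisation; Itga8 -0.0015 with edgeR, Nid2 -0.045 and Itga8 -0.050 with DESeq2, Itga8 -0.079, Itgb4 0.053, Fermt2 -0.11 and Parva -0.014 with the replicate block. With single libraries left out the fold change ranged from -0.068 to 0.16 for Fermt2, -0.15 to 0.22 for Itga2, -0.11 to 0.044 for Itga5, -0.28 to 0.16 for Itga8, -0.11 to 0.25 for Itgb3, -0.35 to 0.00045 for Itgb4, -0.21 to 0.070 for Lama2, -0.012 to 0.34 for Lama3, -0.26 to 0.0074 for Lama4, -0.23 to 0.21 for Nid2 and -0.035 to 0.070 for Parva. After the GC and length correction the log2 ratio difference was 0.012 for Itga9/Itgb1 and -0.00097 for Itgav/Itgb5, against -0.080 and 0.045 without it. Few reads limit Lama1, Lamc3 and Ilk, which held 22, 151 and 48 reads over the vehicle libraries. Whether Ilk lost reads to Taf10, which overlaps most of its exon bases, was not tested.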
